A study of Rattus norvegicus with 8 samples.

Results

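The genes described here are Gfap, Vim, Nes and Synm, which encode cytoplasmic intermediate filament proteins of astrocytes. They were taken by gene symbol from a table of raw counts with 28546 entries, in which each of the 4 symbols occurs once, and all 4 passed the filter that left 14445 tested genes. The RNA-seq data are 8 bulk libraries from cultured astrocytes, taken from pups of the Sprague Dawley rat. For the sh-APP libraries (n = 3), melanoma cells named 12-273 BM expressed shAPPa, a hairpin that targets amyloid precursor protein. For the anti-Abeta libraries (n = 3), 12-273 BM cells with a scrambled hairpin were combined with anti-amyloid-beta antibody. For the control libraries (n = 2), the scrambled hairpin was used and no antibody is named. All 3 groups share the exposure to melanoma cells or their products, so no library here shows astrocytes without it. The labels name a co-culture, a 24 h incubation in medium from melanoma cells, and astrocyte medium placed on the melanoma cells, and they do not say which applied. A single hairpin is named. The sources used here do not give the age of the pups, the number of animals behind each library or whether replicates are separate cultures.

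Intermediate filaments are rope-like polymers that give a cell mechanical resilience and anchor its organelles. GFAP is the main filament protein of mature astrocytes and is widely used as a mark of reactive astrocytes. Vimentin polymerises with GFAP and dominates in immature astrocytes. Nestin, known from neural progenitors and re-expressed in reactive astrocytes, does not form filaments by itself and assembles with vimentin. Synemin, a large filament protein, also co-assembles with vimentin and links filaments to proteins at the cell membrane.

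Gfap and Vim had their highest mean in sh-APP and their lowest in control, while Nes and Synm each followed another order. Gfap was highest in sh-APP and also higher in anti-Abeta than in control. Vim was higher in sh-APP than in control. Nes was highest in anti-Abeta, and Synm was higher in sh-APP than in anti-Abeta. Levels are given as CPM, the counts of a library brought to a common total, with each total scaled by its TMM factor, which corrects for a shift in the bulk of genes. CPM are not divided by transcript length, so levels are compared between libraries and not between genes. In bulk RNA, fewer cells that express a gene and less of its RNA per cell cannot be told apart. Pairs of libraries within a group differed by more than counting noise, with a chi-square per degree of freedom of 17.5 to 20.9, except for the pairs that hold replicate 2 of anti-Abeta, at 31.9 and 47.0. Leaving that library out changed none of the 12 calls of the filament genes, and put the log2 fold change of anti-Abeta against control at 0.41 for Gfap and 0.16 for Vim.

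**Figure D1:**
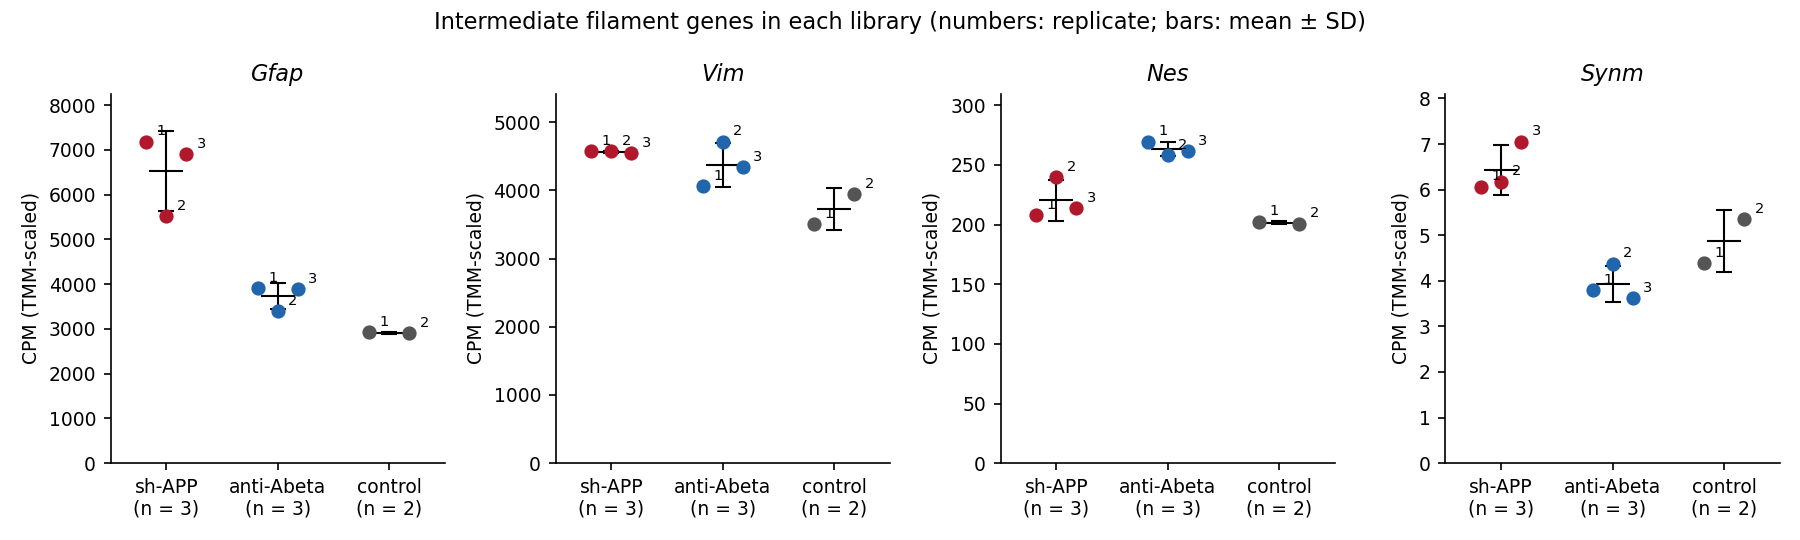
CPM of each filament gene in each library, with sh-APP at the left, anti-Abeta in the middle and control at the right of every panel. Points are libraries numbered by replicate and bars are the mean ± SD. The Gfap points of the 3 groups do not overlap, and the Nes points of anti-Abeta lie above all others.

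Gfap had 7180.3, 5513 and 6902 CPM in sh-APP replicates 1 to 3. It had 3914, 3388 and 3883 CPM in anti-Abeta replicates 1 to 3, and 2924 and 2897 CPM in control replicates 1 and 2. The lowest sh-APP library was above the highest anti-Abeta library, and the lowest anti-Abeta library was above both control libraries. The mean was 6532 ± 893 CPM in sh-APP (SD, n = 3), 3728 ± 295 in anti-Abeta (n = 3) and 2911 ± 19.4 in control (n = 2). Gfap rose in sh-APP against control by a log2 fold change of 1.17 ± 0.11 (SE), which is 2.24-fold (adjusted p = 8.18e-06, by the quasi-likelihood test of edgeR, adjusted after Benjamini and Hochberg over all tested genes). Of the tested genes, 2.85% had a larger fold change in that comparison. Against anti-Abeta, Gfap was higher in sh-APP by 0.81 ± 0.10, which is 1.75-fold (adjusted p = 0.000573, edgeR).

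The Gfap difference of anti-Abeta against control was smaller, at a log2 fold change of 0.36 ± 0.11 or 1.28-fold (adjusted p = 0.0291, edgeR). It was higher in 3 of 3 anti-Abeta libraries. The adjusted p rose above the threshold when control replicate 1 (0.165), control replicate 2 (0.129), replicate 1 of anti-Abeta (0.0847) or its replicate 3 (0.0872) was left out, while the fold change moved little, between 0.32 and 0.41 over the 8 libraries left out in turn. The Gfap order of sh-APP, then anti-Abeta, then control therefore rests on a called difference at each step. At the lower step the call depends on single libraries, whereas the direction of the fold change does not.

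Vim had 4575, 4569 and 4544 CPM in sh-APP replicates 1 to 3. It had 4058, 4712 and 4342 CPM in anti-Abeta replicates 1 to 3, and 3508 and 3944 CPM in control replicates 1 and 2. The sh-APP libraries lay close together and inside the range of anti-Abeta, and both groups were above both control libraries. The mean was 4563 ± 16.7 CPM in sh-APP (SD, n = 3), 4371 ± 328 in anti-Abeta (n = 3) and 3726 ± 309 in control (n = 2). Vim rose in sh-APP against control by a log2 fold change of 0.29 ± 0.08 (SE), or 1.22-fold (adjusted p = 0.00975, edgeR), which did not pass when control replicate 1, the lower control library, was left out (0.22, adjusted p = 0.124).

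In anti-Abeta against control, the log2 fold change of Vim was 0.23 ± 0.08 (adjusted p = 0.0538, edgeR), with a 95% interval of 0.05 to 0.41. It lay just outside the threshold of 0.05 and came inside it under 8 of 18 alternative settings, among them DESeq2 (adjusted p = 0.0384) and limma-voom (0.0400). Between sh-APP and anti-Abeta the fold change of Vim was 0.06 ± 0.07 (adjusted p = 0.584), with a 95% interval of -0.10 to 0.22. Any difference of Vim between those groups was therefore not detectable beyond their spread.

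For Gfap and Vim, which were both called higher in sh-APP against control, the 250 bases before the annotated gene start are shown so that their upstream sequences can be compared. They are RefSeq sequences of the rat build GRCr8, a later build than the rn6 named for the counts, written 5′ to 3′ on the strand of the gene. Gfap lies on the minus strand (chr10:88361662-88361911) and Vim on the plus strand (chr17:81577011-81577260). Capitals mark matches on either strand to 3 promoter motifs. The first, bound by the core transcription machinery, has the letters TATAAA and is called the TATA box here. The second, bound by factor NF-Y, is the CCAAT box, named by its letters. The third, bound by Sp1 and its relatives, is the GC box with the letters GGGCGG.
Gfap: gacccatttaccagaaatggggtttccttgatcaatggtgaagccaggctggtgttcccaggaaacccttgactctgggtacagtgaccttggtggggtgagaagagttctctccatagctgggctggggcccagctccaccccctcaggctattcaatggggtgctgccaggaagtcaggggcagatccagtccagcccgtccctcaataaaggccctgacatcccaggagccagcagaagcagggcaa
Vim: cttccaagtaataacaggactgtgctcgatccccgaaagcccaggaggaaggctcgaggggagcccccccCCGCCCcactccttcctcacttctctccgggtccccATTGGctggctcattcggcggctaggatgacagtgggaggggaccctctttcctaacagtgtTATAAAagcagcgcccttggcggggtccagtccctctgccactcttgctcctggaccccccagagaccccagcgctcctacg

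The Vim window held 1 match to the exact letters of each of these motifs, with the TATA box starting 82 bases before the annotated start. The Gfap window held no match to these exact letters. Variants of the letters were not searched, so the lack of a match does not say that Gfap lacks such an element. The TATA box motif occurs in 12.9% of 33469 rat windows of the same length, the CCAAT box in 34.02% and the GC box in 30.5%. On either strand, the short motif of the NFI factors (TTGGC) was matched at 2 places in Vim, of which 1 overlaps the CCAAT box, and at none in Gfap, with a match in 40.3% of all windows. The site of the STAT factors (TTCNNNGAA, in 7.67% of all windows) and the AP-1 site (TGANTCA, in 6.34%) were matched in neither window. Sites outside these windows, such as those further upstream, were not searched. The table's windows for Nes and Synm lie within the span of the annotated gene and are not shown.

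Nes had 208, 239.8 and 213 CPM in sh-APP replicates 1 to 3. It had 269, 258 and 261 CPM in anti-Abeta replicates 1 to 3, and 202 and 201 CPM in control replicates 1 and 2. All anti-Abeta libraries were above all sh-APP libraries, and these were above both control libraries. The mean was 220.3 ± 17.2 CPM in sh-APP (SD, n = 3), 263 ± 5.85 in anti-Abeta (n = 3) and 202 ± 1.21 in control (n = 2). Nes rose in anti-Abeta against control by a log2 fold change of 0.38 ± 0.08 (SE), or 1.30-fold (adjusted p = 0.00515, edgeR), which did not pass when control replicate 1 was left out (adjusted p = 0.0622), although the fold change stayed at 0.38.

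In sh-APP against anti-Abeta, Nes fell by 0.26 on the log2 scale (log2 fold change -0.26 ± 0.07, adjusted p = 0.0170, edgeR). That call was lost when replicate 1 of sh-APP (adjusted p = 0.0848), its replicate 3 (0.0704) or replicate 1 of anti-Abeta (0.0551) was left out, while all 8 fold changes with a library left out stayed below 0. In sh-APP against control the log2 fold change of Nes was 0.13 ± 0.08 (adjusted p = 0.179), with a 95% interval of -0.04 to 0.29. It passed with upper-quartile factors (0.21, adjusted p = 0.0322) and with library totals alone (0.33, adjusted p = 0.00250). Library totals alone put the median of all tested genes at 0.23 in this comparison, against 0.03 with TMM. Relative to that median the Nes value was 0.10 with either scaling.

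Synm had the lowest counts of the 4, at 133 to 308 per library, so counting error is a larger part of its spread. It had 6.07, 6.17 and 7.05 CPM in sh-APP replicates 1 to 3. It had 3.80, 4.38 and 3.63 CPM in anti-Abeta replicates 1 to 3, and 4.39 and 5.35 CPM in control replicates 1 and 2. All sh-APP libraries were above both control libraries, and all anti-Abeta libraries were below them, although anti-Abeta replicate 2 and control replicate 1 nearly touch. The mean was 6.43 ± 0.540 CPM in sh-APP (SD, n = 3), 3.93 ± 0.394 in anti-Abeta (n = 3) and 4.87 ± 0.674 in control (n = 2).

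Synm was higher in sh-APP than in anti-Abeta by a log2 fold change of 0.71 ± 0.16 (SE), or 1.63-fold (adjusted p = 0.00878, edgeR), and 3.89% of the tested genes had a larger fold change. The call was kept whichever library was left out, and the fold change then lay between 0.64 and 0.81. Against control, neither group passed. The fold change was 0.40 ± 0.18 in sh-APP (adjusted p = 0.0877, 95% interval -0.00 to 0.80) and -0.31 ± 0.19 in anti-Abeta (adjusted p = 0.236, 95% interval -0.71 to 0.10). The sh-APP value passed with upper-quartile factors (adjusted p = 0.0424) and with library totals alone (0.0152), where the median of all genes was shifted as described for Nes, and relative to that median it was 0.37 with either scaling.

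**Figure D2:**
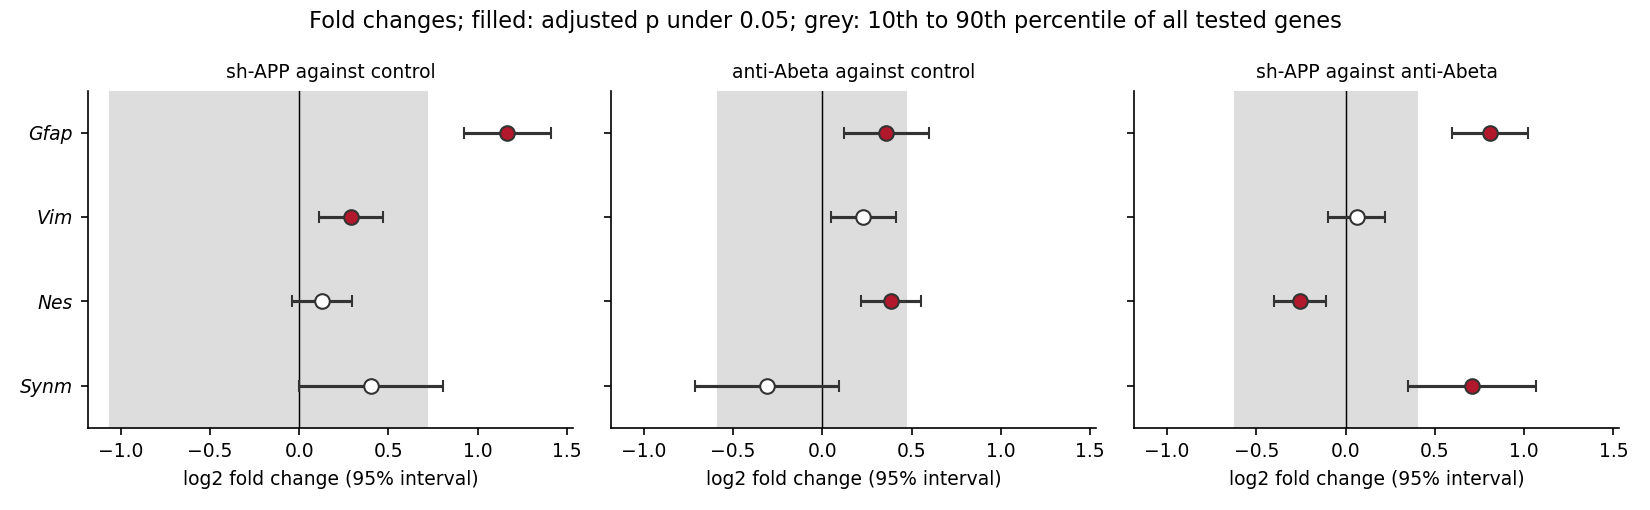
Log2 fold changes of the 4 genes in the 3 comparisons, with 95% intervals from the fit. Filled points passed an adjusted p of 0.05, open points did not, and the grey band spans the 10th to 90th percentile of all 14445 tested genes. Gfap lies above the band in both sh-APP comparisons, and Synm lies above it in sh-APP against anti-Abeta.

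In sh-APP against control, 2 of the 4 genes were called, both higher, where edgeR called 53.7% of all tested genes, with 25.8% higher and 27.9% lower. In anti-Abeta against control, 2 of the 4 were called, again both higher, where edgeR called 29.2% of all tested genes, with 12.7% higher and 16.6% lower. In sh-APP against anti-Abeta, 3 of the 4 were called, where 26.1% of all tested genes were called; of these 3, Gfap and Synm were higher (10.1% of all tested genes) and Nes was lower (16% of all tested genes). The groups did not overlap for 4 of 4 genes in sh-APP against control and for 4 of 4 in anti-Abeta against control, and for 3 of 4 in sh-APP against anti-Abeta. Among all tested genes that share was 70.7%, 54.9% and 41.3% in the same order. The first 2 comparisons use the same control libraries. The whole count of called genes in anti-Abeta against control was 4223, and 439 without control replicate 1.

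Within groups, the coefficient of variation was above the value that counting alone gives for each gene. The exception was Nes in control (0.603%, where counting gives 1.17%). Each value comes from 2 or 3 libraries and was not tested, so the small excess of Synm, and of Vim in sh-APP, does not show variation beyond counting. The coefficient of variation of Gfap was 13.7% in sh-APP, 7.91% in anti-Abeta and 0.665% in control, where counting alone gives at most 0.307%. That of Vim was 0.367% in sh-APP, 7.51% in anti-Abeta and 8.28% in control, so the group in which the libraries lay closest differed between the genes. That of Synm was 8.40% in sh-APP, 10.02% in anti-Abeta and 13.8% in control, where counting alone gives between 5.90% and 7.82%. In sh-APP replicate 2 Gfap was lowest of its group and Nes highest, and in anti-Abeta replicate 2 Gfap was lowest of its group and Vim highest.

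A ratio of counts between genes of the same library does not depend on how libraries are scaled, and it shows whether the genes changed by unequal amounts. There were 1.57, 1.21 and 1.52 Gfap counts per Vim count in sh-APP replicates 1 to 3, against 0.965, 0.719 and 0.894 in anti-Abeta replicates 1 to 3 and 0.834 and 0.735 in control replicates 1 and 2. All sh-APP libraries were above all others, and anti-Abeta overlapped control. The mean log2 ratio was higher in sh-APP than in control by 0.86 (exact permutation test, two-sided, p = 0.1) and higher in sh-APP than in anti-Abeta by 0.74 (exact p = 0.1). In anti-Abeta it was 0.12 above control (exact p = 0.5). With 3 libraries against 2 or 3, the smallest p this test allows is 0.1, so no ratio could pass 0.05, and over the 9 ratio tests the smallest adjusted p was 0.18.

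There were 4.54, 5.25 and 4.70 Nes counts per 100 Vim counts in sh-APP replicates 1 to 3, against 6.64, 5.48 and 6.02 in anti-Abeta replicates 1 to 3 and 5.77 and 5.09 in control replicates 1 and 2. The sh-APP libraries were below all anti-Abeta libraries (difference of log2 ratios -0.32, exact p = 0.1), and control overlapped both. There were 1.33, 1.35 and 1.55 Synm counts per 1000 Vim counts in sh-APP replicates 1 to 3, against 0.936, 0.929 and 0.835 in anti-Abeta replicates 1 to 3 and 1.25 and 1.36 in control replicates 1 and 2. All anti-Abeta libraries were below both sh-APP (difference of sh-APP against anti-Abeta 0.65, exact p = 0.1) and control (difference of anti-Abeta against control -0.54, exact p = 0.1). Sh-APP and control overlapped, with a difference of 0.11 (exact p = 0.6).

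**Figure D3:**
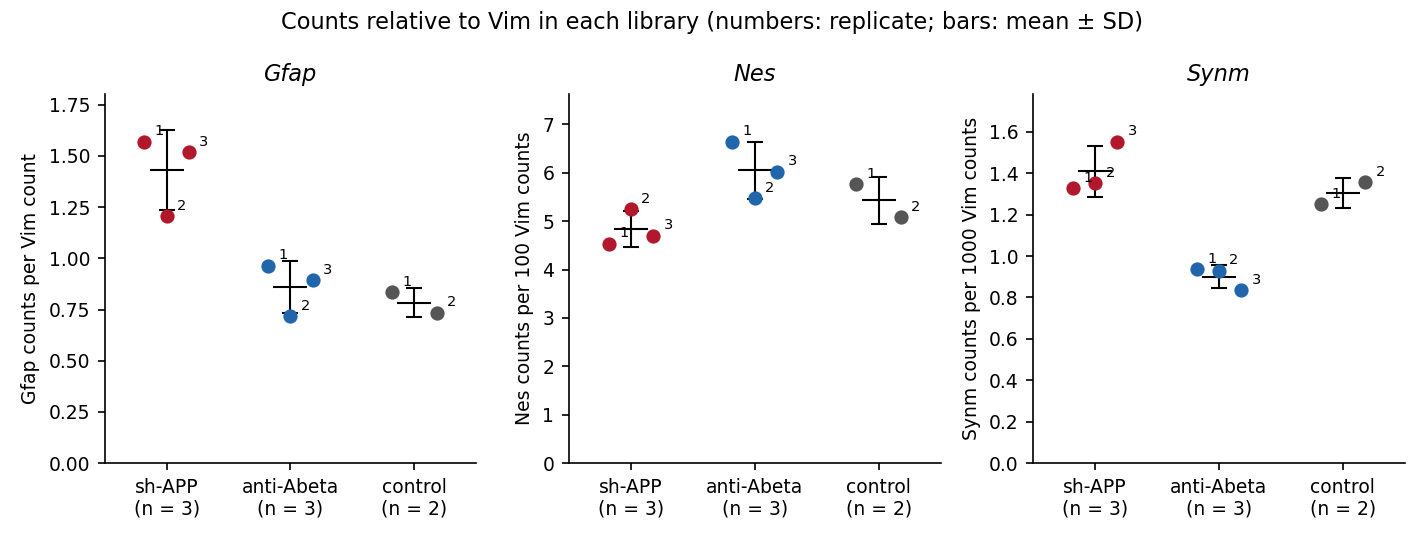
Counts of Gfap, Nes and Synm relative to the Vim count of the same library, by group, with points numbered by replicate and bars at the mean ± SD. Gfap per Vim count stands apart in sh-APP at 1.21 to 1.57, and Synm per 1000 Vim counts stands apart in anti-Abeta at 0.835 to 0.936.

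For each gene, the 3 tested genes with the most similar course over the 8 libraries were found by the root-mean-square difference of log2 CPM centred on its own mean, among 10093 genes of at least 5 CPM on average. Libraries of a group share their treatment, so a small distance says that the same libraries were high and low, and no more. For Gfap these were Lgi4, a secreted glial protein, Clu, the secreted chaperone clusterin, and Tspo, a protein of the outer mitochondrial membrane, at distances of 0.06, 0.07 and 0.08, where the median gene stood at 0.51. Lgi4 averaged 108 CPM in sh-APP, 60.1 in anti-Abeta and 49.2 in control. Clu averaged 1655 CPM in sh-APP, 894 in anti-Abeta and 746 in control, and both Lgi4 and Clu overlap another gene on the chromosome. Vim itself stood at 0.42 from Gfap, Nes at 0.53 and Synm at 0.36.

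For Vim the closest were Mxra8, a membrane protein of the cell surface, Nfkbia, an inhibitor of NF-kB, and Nans, an enzyme of sialic acid synthesis, at distances of 0.04, where the median gene stood at 0.23. Nfkbia averaged 208 CPM in sh-APP, 195 in anti-Abeta and 164 in control. For Nes they were Isoc1, Lrig1, a membrane protein that restrains growth factor receptors, and Pmf1, a kinetochore protein, at 0.04, 0.05 and 0.06 (median gene 0.27). Lrig1 averaged 159.6 CPM in sh-APP, 195 in anti-Abeta and 155 in control. For Synm they were Kcnk10, a potassium channel, Sod2, the mitochondrial superoxide dismutase, and Il33, a cytokine of the nucleus, at 0.09, 0.10 and 0.12 (median gene 0.37). Sod2 averaged 671 CPM in sh-APP, 462 in anti-Abeta and 517 in control. Of these genes Lrig1, Pmf1, Kcnk10 and Il33 also overlap another gene.

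**Figure D4:**
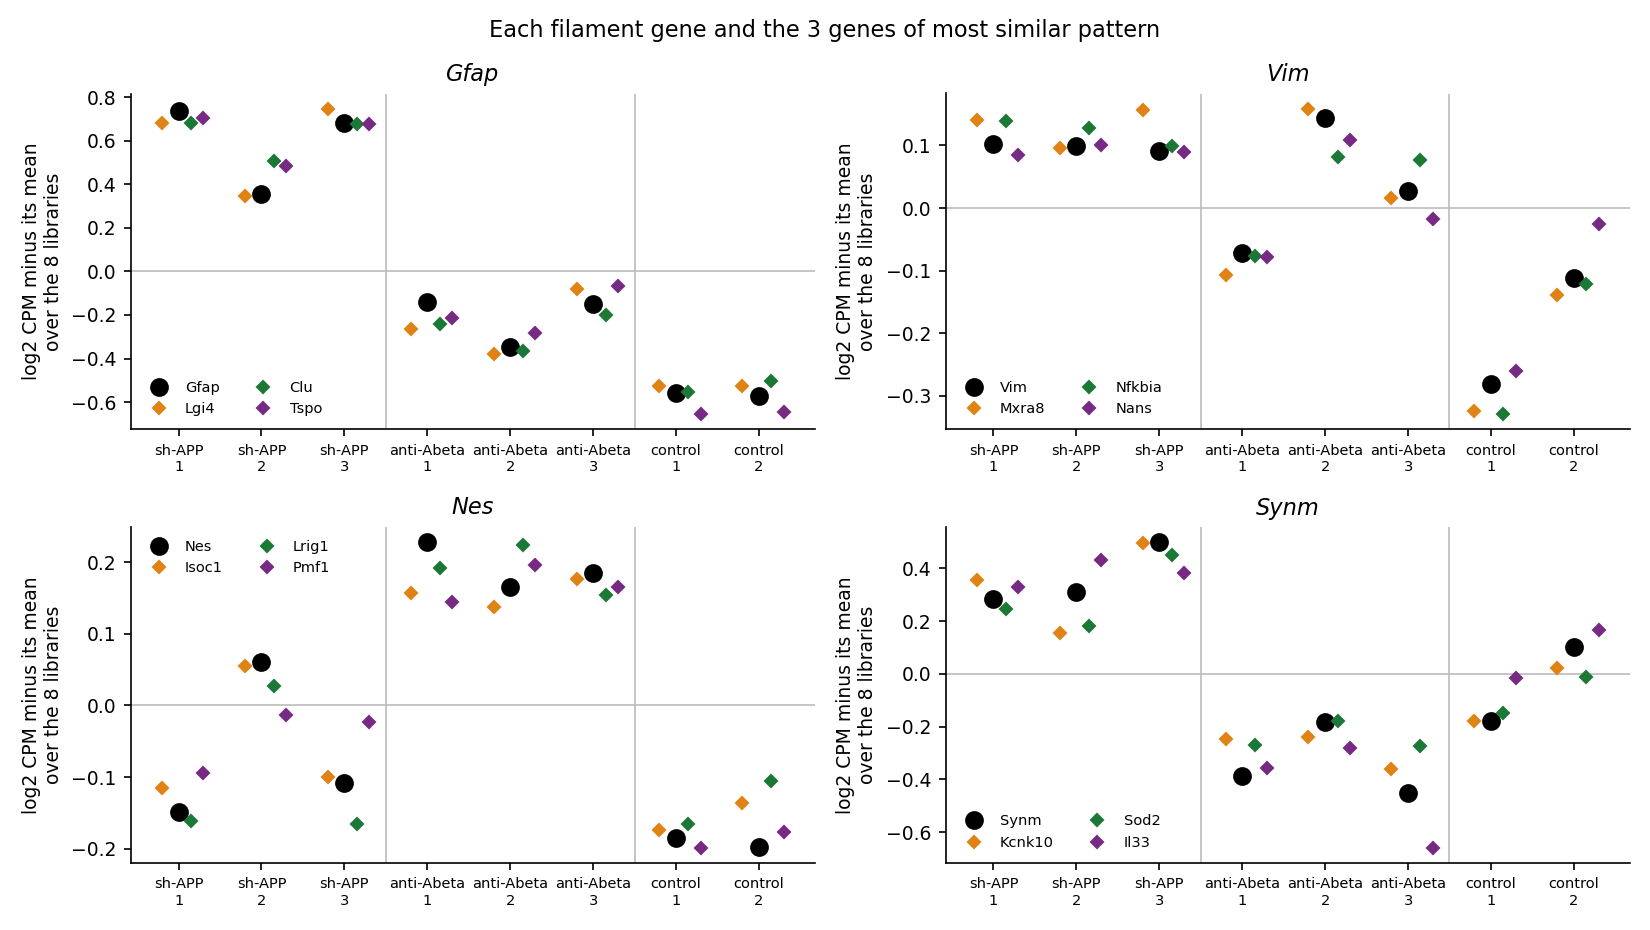
Log2 CPM minus its mean over the 8 libraries for each filament gene (large black points) and for the 3 genes of most similar course (small points), by library. Gfap and its neighbours are highest in sh-APP and lowest in control, and Nes and its neighbours are highest in anti-Abeta.

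The counts of each list are read beside the shares over all tested genes. In sh-APP against control 25.8% were higher and 27.9% lower. The shares were 12.7% and 16.6% in anti-Abeta against control, and 10.1% and 16% in sh-APP against anti-Abeta. No list was tested against these shares. Among 15 other tested intermediate filament genes, 3 were higher and 3 lower in sh-APP than in control. The median log2 fold change of the 15 was -0.32, against 0.03 over all tested genes. Lmna, which encodes the A-type lamins of the nuclear envelope, rose by 0.76 ± 0.10 (SE), with a mean of 294 CPM in sh-APP and 174 in control. Iffo1, a filament family protein, rose by 0.45 ± 0.09, and Krt10, a keratin at 4.25 CPM in sh-APP and 10.4 in control, had -1.29 ± 0.21. The other 3, Lmnb2 (higher), Nefl and Lmnb1 (lower), are named because they complete the count, and of the lower calls 1 was left without control replicate 1 or 2 or sh-APP replicate 1 or 3. In anti-Abeta against control, 2 rose and 2 fell, among them Lmna at 0.49 ± 0.10 and Krt10 at -0.89 ± 0.21, and without control replicate 1 none was called, while 1 was called higher without replicate 1 or 3 of anti-Abeta and 6 with library totals alone. In sh-APP against anti-Abeta, 2 rose and 1 fell, with Lmna at 0.27 ± 0.09, Iffo1 at 0.24 ± 0.08 and Lmnb1, a B-type lamin, at -0.47 ± 0.13, and none was called when replicate 1 or 3 of sh-APP or replicate 2 of anti-Abeta was left out. Krt10 overlaps another gene. The neuronal and muscle filament genes Nefm, Ina, Prph and Des averaged below 2 CPM in each group and did not pass in any of the 3 comparisons. Nefl, another neuronal filament gene, was called lower in both comparisons with control. In anti-Abeta against control Nefl had -3.33 (adjusted p = 0.00998, edgeR), and DESeq2 gave it no adjusted p there.

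Of 17 tested genes for proteins that link or anchor filaments, sh-APP against control had 4 higher and 3 lower. The shares over all tested genes were 25.8% and 27.9%. Plec, which encodes plectin, the linker that ties intermediate filaments to each other and to the membrane, had 99.9 CPM in sh-APP, 50.5 in anti-Abeta and 35.2 in control. Plec rose by 1.50 ± 0.12 in sh-APP against control (adjusted p = 4.77e-06, edgeR), by 0.98 ± 0.11 in sh-APP against anti-Abeta (adjusted p = 0.000351), and by 0.52 ± 0.12 in anti-Abeta against control (adjusted p = 0.00961, lost without control replicate 1 at 0.116). Its groups stood in the same order as those of Gfap, and it overlaps Parp10. Tln1, the integrin adaptor talin, rose by 0.66 ± 0.10 in sh-APP against control, and Vcl, its partner vinculin, had -0.56 ± 0.09. In anti-Abeta against control 3 of the 17 rose and 1 fell, and none was called without control replicate 1. In sh-APP against anti-Abeta 3 rose and 1 fell, and without sh-APP replicate 3 there was 1 higher call, while the lower call was lost without either control library, replicate 1 of sh-APP or replicate 2 of anti-Abeta. With library totals alone 9 rose in sh-APP against control.

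Of 24 tested chaperones, proteases and modifying enzymes that act on filaments, sh-APP against control had 10 higher and 8 lower. The shares over all tested genes were 25.8% and 27.9%. Hspb1, a small heat shock protein that binds filaments, rose by 2.20 ± 0.19, with 173 CPM in sh-APP and 37.6 in control. Fbxo2, a ubiquitin ligase subunit, rose by 1.18 ± 0.13, and Rock1, a kinase that phosphorylates GFAP and vimentin, had -1.24 ± 0.13. In sh-APP against anti-Abeta 7 rose and 5 fell, with Hspb1 at 1.66 ± 0.16, Fbxo2 at 0.86 ± 0.11 and Cdk1, the mitotic kinase, at -1.20 ± 0.18. In anti-Abeta against control 4 rose and 5 fell, with Rock1 at -0.60 ± 0.13 and Dnajb6, a chaperone, at -0.35 ± 0.09, and none of the 24 was called without control replicate 1, and none higher without control replicate 2, with 1 higher call without replicate 1 and 2 without replicate 3 of anti-Abeta. With library totals alone 9 of them rose and 2 fell there, Dnajb6 no longer passed (adjusted p = 0.104, edgeR), and with upper-quartile factors 7 rose and 5 fell. Tln1, Rock1 and Dnajb6 overlap other genes.

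Of 44 tested regulators of Gfap, Vim or Nes transcription, sh-APP against control had 9 higher and 12 lower, with a median log2 fold change of -0.05. The shares over all tested genes were 25.8% and 27.9%. Socs3, the feedback inhibitor of the STAT3 pathway that drives Gfap, had 159.8 CPM in sh-APP, 119 in anti-Abeta and 80.6 in control. Socs3 rose by 0.99 ± 0.10 in sh-APP against control, by 0.43 ± 0.09 in sh-APP against anti-Abeta, and by 0.56 ± 0.10 in anti-Abeta against control (lost without control replicate 1, adjusted p = 0.0749). Notch1, a receptor of astrocyte differentiation, rose by 0.85 ± 0.11 in sh-APP against control, and Sp1, a factor that binds GC boxes, had -0.98 ± 0.10. Cntf, a cytokine of this list, had -0.68 in anti-Abeta against control (adjusted p = 0.00311, edgeR), where Socs3 and Gfap were higher. The part of these regulators in the Gfap level was not tested. In anti-Abeta against control 7 rose and 7 fell, and without control replicate 1 there were 0 higher and 2 lower calls, with 2 higher without control replicate 2 and 3 higher without replicate 3 of anti-Abeta. In sh-APP against anti-Abeta 6 rose and 4 fell, with Zeb1, a repressor that overlaps another gene, at -0.62 ± 0.09, and 2 rose when replicate 3 of sh-APP or replicate 1 of anti-Abeta was left out, against 3 higher and 2 lower without replicate 1 of sh-APP. With library totals alone 18 rose in sh-APP against control, and in anti-Abeta against control 13 rose and 4 fell.

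Of 12 astrocyte markers, all tested, 8 were higher and 1 lower in sh-APP than in control, where 25.8% of all tested genes were higher and 27.9% lower. The calls of smallest p there were Fgfr3 at 0.69 and Aldoc at 0.90. In anti-Abeta against control 3 were higher and 3 lower, and in sh-APP against anti-Abeta 7 were higher and 1 lower. Among all tested genes 12.7% were higher and 16.6% lower in the former, and 10.1% and 16% in the latter. These shares apply to each list that follows. The 12 markers summed to 13118 to 14678 CPM in sh-APP, 11017 to 12875 in anti-Abeta and 13926 to 14531 in control. Slc1a3, a glutamate transporter, averaged 4651 CPM in sh-APP, 4205 in anti-Abeta and 5100.1 in control, and Aqp4, a water channel, 2325 CPM in sh-APP, 1684 in anti-Abeta and 2266 in control, whereas Gjb6, a connexin, stayed under 1 CPM in every library. Of 18 proliferation genes, edgeR and DESeq2 each called 0 higher and 17 lower in sh-APP than in control, with 18 at an unadjusted p under 0.05 by edgeR, and 17 were lower in sh-APP than in anti-Abeta. Vim and Nes are also made by progenitors, vessel cells and mural cells. Of 7 tested progenitor markers, 2 were higher and 2 lower in sh-APP than in control, with a summed level of 1194 to 1273 CPM in sh-APP, 1156 to 1193 in anti-Abeta and 1409.7 to 1479.8 in control. Of 4 tested endothelial markers 2 rose, and 1 of these, Kdr, which stayed under 1 CPM, was not called without control replicate 2 or replicate 1 or 2 of sh-APP. The endothelial list summed to 8.56 to 10.04 CPM in sh-APP, 6.97 to 8.71 in anti-Abeta and 6.08 to 6.67 in control, with 5 of its 7 genes under 1 CPM in every library and Cldn5 without a count. Of 9 tested pericyte, smooth muscle and fibroblast markers 2 rose, with 35.8 to 40.6 CPM in sh-APP, 26.2 to 32.8 in anti-Abeta and 24.4 to 28.1 in control, and Rgs5, Acta2 and Des stayed under 1 CPM in every library. Of 2 tested microglia markers 1, Tyrobp, rose, and it was not called without control replicate 2 (adjusted p = 0.0838, edgeR). The 9 microglia markers in the table all stayed under 1 CPM and summed to between 1.30 and 2.11 CPM in sh-APP, 0.783 and 1.14 in anti-Abeta and 0.108 and 0.445 in control, with Cx3cr1 at 0. The part of these cells, or of any RNA from the melanoma cells, in the filament gene levels was not tested.

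Among the other lists, 1 oligodendrocyte lineage marker of 10 tested was higher and 2 were lower in sh-APP than in control, with a summed level of 3149.6 to 3307 CPM in sh-APP, 3149.7 to 3495 in anti-Abeta and 2673 to 2785 in control. Beside the counts of these lists, 25.8% of all tested genes were higher and 27.9% lower in that comparison. Of 11 neuron markers 4 rose and 4 fell, with 161 to 171 CPM in sh-APP, 232 to 297 in anti-Abeta and 340.0 to 363 in control. Of 3 tested ependymal markers 2 rose and 1 fell, of which Dnah12 (lower) was not called without control replicate 2 or replicate 3 of sh-APP, with limma-voom or with the replicate block, and Rsph1 (higher) was not called with the block or without either control library or replicate 1 or 3 of sh-APP. The ependymal list summed to 19.6 to 22.6 CPM in sh-APP, 14.4 to 17.5 in anti-Abeta and 15.3 to 19.0 in control. Of 6 tested melanocyte and melanoma markers 1 rose and 3 fell, with 2282 to 2487 CPM in sh-APP, 3580.2 to 3872 in anti-Abeta and 4373 to 4453 in control, while Tyr, Tyrp1, Dct and Mlana stayed under 1 CPM in every library. Among the lower calls, Gpnmb had -0.91 and Slc24a5, which overlaps another gene, had -1.74. Sox10 stands on this list and on the oligodendrocyte lineage list, so the sum is not a measure of melanoma RNA alone. The rat App gene itself ran from 589.8 to 648 CPM in sh-APP, from 514 to 576 in anti-Abeta and from 559 to 587 in control, and it does not measure a hairpin placed in the melanoma cells.

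**Figure D5:**
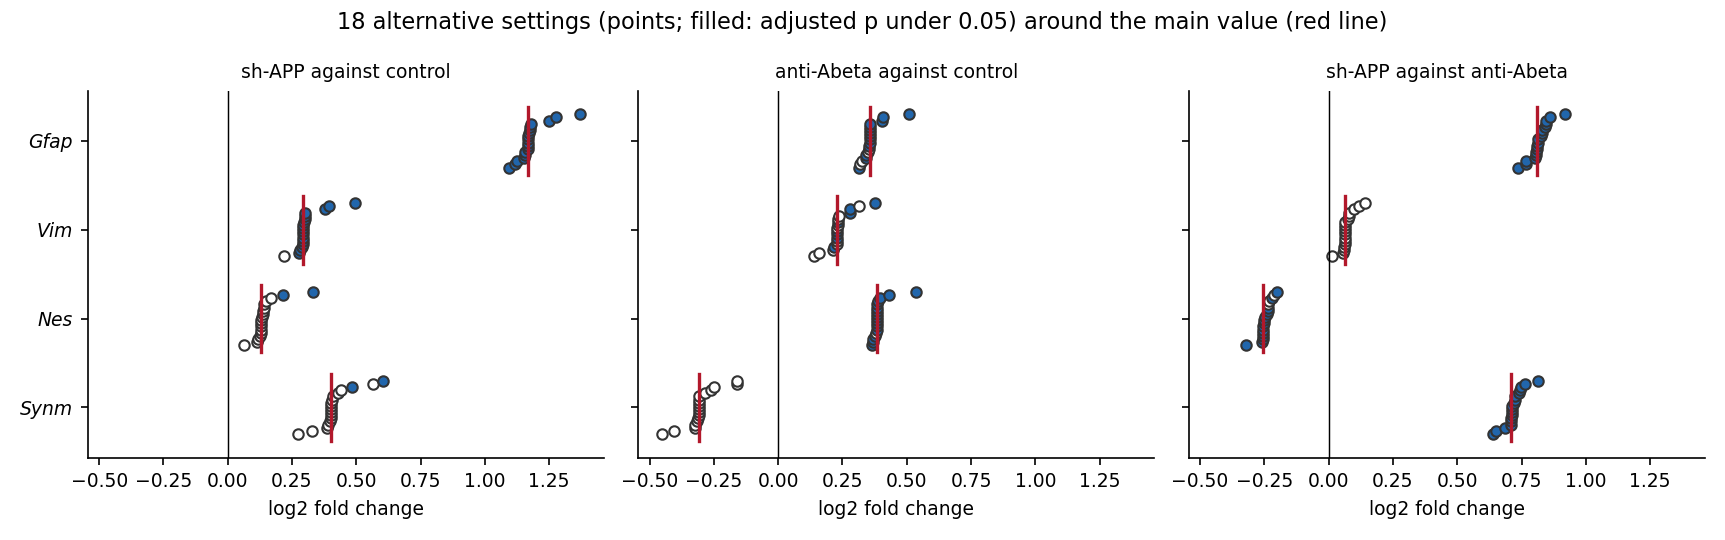
Log2 fold change of each filament gene in each comparison under 18 alternative settings (points, filled where the adjusted p was under 0.05) and as reported (red line). The Gfap values of sh-APP against control and against anti-Abeta are filled under all 18, whereas Vim in anti-Abeta against control is split between filled and open points.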

How the data were processed

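The deposited values are raw counts for each gene symbol, and a check found only whole numbers and unequal totals. The submitters' processing notes name FastQC (0.11.7), Trimmomatic (0.36), the aligner STAR (2.6.0a), SAMtools (1.9), the counter HTSeq (0.11.1), DESeq2 (1.24.0) and the build rn6, without settings. Whether counting used strand is not stated. Totals ran from 34250464 to 47831595 counts, so counting error is small except for Synm.

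A single edgeR model (version 4.0.16, R version 4.3.3) held all 8 libraries with the group as its term. It used filterByExpr (minimum count 10, minimum total 15), TMM factors and the robust quasi-likelihood test, with Benjamini-Hochberg adjustment over 14445 genes and a threshold of 0.05. A standard error was obtained from the fold change and its F value. The tests see only variation among these libraries, which could be technical. Log2 CPM used a prior count of 2. Ratios were compared with exact permutation tests (Python 3.11.15). The genes, the lists and the tests were chosen with earlier results of these data known. Named are the filament genes, the 3 most similar genes of each, and up to 3 called genes of each pathway list or 2 of each marker list by smallest p, of which the text prints part; genes outside this rule were named after their values were seen. No filament gene overlaps another gene in RefSeq's GRCr8 annotation. Reads of overlapping genes cannot be told apart without strand.

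Counts were simulated with 200 changed genes of 14445, and edgeR compared sh-APP with control. It found 6% of the 1.25-fold, 54% of the 1.5-fold, 76% of the 2-fold and 98% of the 4-fold changes, and called 5 unchanged genes. In the data 53.7% of the tested genes were called in that comparison. The simulation held far fewer changed genes, so its shares do not give the sensitivity reached in the data. Alternatives were DESeq2 1.42.0, limma-voom (limma 3.58.1), upper-quartile factors, DESeq2's size factors within edgeR, library totals alone, the non-robust spread, no low-count filter, at least 1 CPM in at least 3 libraries, only the groups compared, a replicate block, and leaving out each library.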

Additional observations from a re-analysis of the deposited data

How the results depend on the processing

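Over 18 alternatives per comparison, the fold changes of the 4 genes kept their sign in every one. Gfap in sh-APP against control and against anti-Abeta, and Synm in sh-APP against anti-Abeta, kept their calls throughout. Nes in sh-APP against control passed at 0.21 with upper-quartile factors and 0.33 with library totals alone, and Synm there at 0.48 and 0.60. Vim in anti-Abeta against control passed with upper-quartile factors (0.28), library totals alone (0.38), no low-count filter (0.23), the 1 CPM filter (0.23), the non-robust spread (0.23), limma-voom (0.23) and DESeq2 (0.22). The Nes ratio of sh-APP against control turned from -0.17 to 0.33 when all tested genes replaced Vim, which leaves Vim out of the ratio by construction. With single libraries left out, calls changed for Vim in sh-APP against control (0.22 to 0.40), and in anti-Abeta against control for Gfap (0.32 to 0.41), Vim (0.14 to 0.32) and Nes (0.37 to 0.39). They changed for Nes in sh-APP against anti-Abeta (-0.32 to -0.21).

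With single libraries left out, the number of genes called ranged from 439 to 4775 in anti-Abeta against control, where leaving out control replicate 1 (439), control replicate 2 (2431) or anti-Abeta replicate 3 (2594) moved it most, and from 2233 to 3582 in sh-APP against anti-Abeta, with 2233 without sh-APP replicate 1. Over all 18 alternatives the highest number was 5007 in anti-Abeta against control (library totals alone) and 4210 in sh-APP against anti-Abeta (DESeq2). With library totals alone the share of higher calls was 62.6% in sh-APP against control (48.0% with TMM), 71.7% in anti-Abeta against control (43.4% with TMM) and 49.5% in sh-APP against anti-Abeta (38.5% with TMM), and with upper-quartile factors 53.9% in anti-Abeta against control. Whether replicate numbers pair the libraries was left undecided. Deviations of same-numbered libraries of sh-APP and anti-Abeta correlated at 0.11, 0.10 and -0.01 across genes. The crossed pairs of replicates 1 and 2 stood at -0.10 and -0.11, and sh-APP replicate 3 did not correlate best with its own number. Deviations within a group sum to 0 and so constrain each other, and these values cannot decide the question. With the replicate block 7328, 3480 and 3675 genes were called in the 3 comparisons, against 7750, 4223 and 3768, and no call of a filament gene changed; Gfap had 1.12 and 0.31, Vim 0.30 and 0.23, Nes 0.14 and 0.40, and Synm 0.40 and -0.32 in sh-APP and in anti-Abeta against control. A single control library is assumed to vary like the other groups.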
